A study of Mus musculus with 18 samples.

Results

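Superoxide and peroxides are removed by a small set of enzymes, and the RNA of 10 of them was compared here in the jejunum of mice after abdominal irradiation. The set holds 3 superoxide dismutases (Sod1, Sod2 and Sod3), catalase (Cat), 4 glutathione peroxidases (Gpx1, Gpx2, Gpx3 and Gpx4) and 2 peroxiredoxins (Prdx1 and Prdx6). The genes were listed by name, with earlier results of these data known, and matched by symbol to the Ensembl gene IDs of the count table. All 10 were found among its 54532 genes, and all 10 were among the 16257 genes with enough counts to be tested.

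The mice were C57BL/6, an inbred strain, aged 8 to 12 weeks, with no other allele named. In the CONV group (5 libraries) a dose of 15 Gy was given to the whole abdomen in 1 fraction at the conventional dose rate, and in the FLASH group (7 libraries) the same dose was given at an ultra-high dose rate. The control group (6 libraries) was not irradiated, and jejunum of irradiated mice was taken at 16 h. RNA came from the whole organ wall, so that fewer cells of a type and less RNA per cell cannot be told apart. Nothing in the labels ties a library to 1 mouse, and p-values therefore measure the spread between these libraries. Libraries are named by group and by the number in their labels.

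Superoxide is a by-product of mitochondrial respiration and a product of NADPH oxidases, and superoxide dismutases turn it into oxygen and hydrogen peroxide. Catalase, in peroxisomes, splits hydrogen peroxide into water and oxygen. Glutathione peroxidases reduce hydrogen peroxide and lipid peroxides with glutathione, and peroxiredoxins do so with thioredoxin or, for Prdx6, mainly glutathione. In the intestine these enzymes meet peroxides made by the epithelium itself, by phagocytes and, briefly, by ionizing radiation in water.

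Libraries held 24.3 to 27.8 M estimated counts in controls, 19.9 to 27.0 M in CONV and 23.1 to 30.2 M in FLASH. Enterocyte markers were abundant in every library, with a summed level from 18543 to 41952 CPM in controls, 55293 to 102085 CPM in CONV and 57554 to 100413 CPM in FLASH (CPM, counts scaled to library size, here with TMM factors). Exocrine pancreas markers summed to at most 0.343 CPM in any library. Libraries differed in how expression varied with transcript length. The slope of log2 CPM, taken relative to each gene's mean over libraries, on log2 transcript length ran from -0.41 to 0.32 in controls, from -0.43 to 0.05 in CONV and from -0.34 to 0.27 in FLASH. Control 6, CONV 6 and FLASH 1 had the most negative slopes of their groups, that is, relatively more counts on short transcripts. Results were therefore also computed without these 3 libraries and with an offset that removes each library's trend with transcript length and GC content.

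The levels of several of the 10 enzymes followed this slope within groups, and not in the order of their own principal transcripts (2294 bases in Prdx1 and 1067 in Gpx2). Shorter coding transcripts exist for Prdx1 (877 bases), Prdx6 (959 bases) and Cat (779 bases), and which of them the reads came from is not known. The offset used the principal transcripts, so its values for these genes rest on those lengths. With deviations from group means over the 18 libraries, Pearson's r was -0.98 for Prdx1, -0.95 for Gpx4, -0.95 for Gpx1, -0.94 for Sod1 and -0.78 for Prdx6, with Spearman's rho of -0.91, -0.95, -0.84, -0.89 and -0.79. For these 5 genes the permutation p, adjusted over 10 genes, was at most 8e-05 for r and 6e-05 for rho. For Sod2, r was -0.55 (permutation adjusted p = 0.0415) and rho was -0.57 (adjusted p = 0.0249). Gpx2 gave r = -0.50 (permutation adjusted p = 0.0276) but rho = -0.32 (adjusted p = 0.227). Sod3, Gpx3 and Cat, with r of 0.48, -0.39 and -0.10 and rho of 0.51, -0.42 and -0.22, did not pass on either measure. Without control 6 and FLASH 1, whose slopes lay farthest from the median once group means were removed, r was -0.95 for Prdx1, -0.92 for Gpx4, -0.91 for Gpx1, -0.87 for Sod1, -0.80 for Prdx6, -0.41 for Sod2 and -0.35 for Gpx2.

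**Figure D1:**
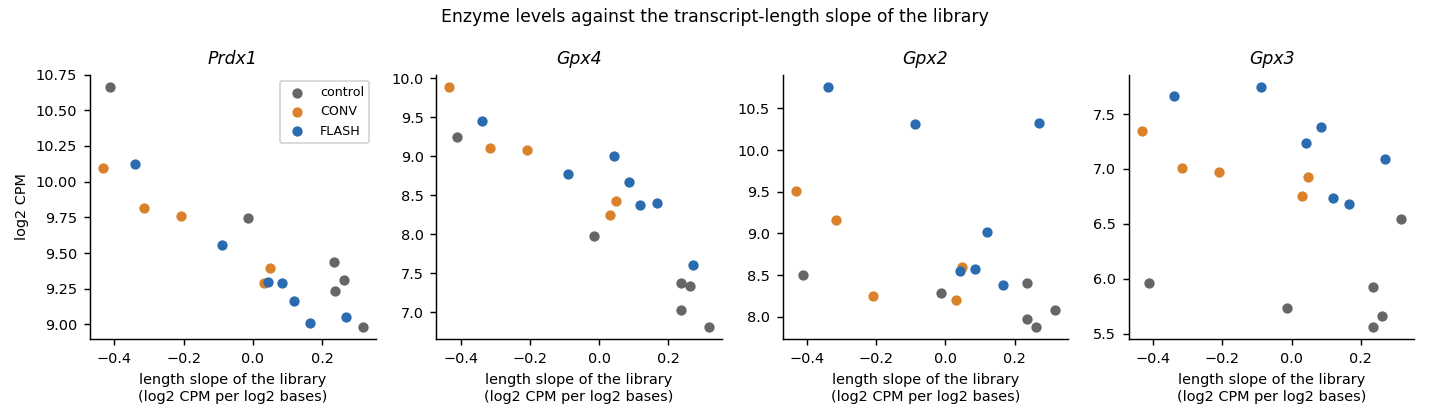
Log2 CPM of 4 enzymes (y axis) against the transcript-length slope of each library (x axis, log2 CPM per log2 bases), 1 point per library, coloured by group. Prdx1 and Gpx4 lie along a falling line in all 3 groups, while Gpx2 and Gpx3 scatter and Gpx3 separates the controls from the irradiated libraries at any slope.

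CONV against control asked how the enzymes stood after irradiation at the conventional rate. Of the 10 genes, Sod2, Gpx3 and Gpx4 rose, Sod3 fell and 6 did not pass an adjusted p of 0.05 (edgeR quasi-likelihood test, Benjamini-Hochberg adjustment over all genes tested). Over all genes tested 22.2% passed, 10.2% higher and 12% lower. The median log2 fold change of the 10 genes was 0.44, against -0.04 over all genes. Sod2 and Gpx3 were higher in every CONV library than in every control library, as were 5.46% of all genes.

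FLASH against control asked the same for the ultra-high rate. Sod1, Gpx2, Gpx3 and Prdx6 rose, Sod3 fell and 5 genes did not pass, where 37.7% of all genes passed, 16.7% higher and 21% lower. The median log2 fold change was 0.49 for the 10 genes and -0.07 over all genes. Gpx3 and Prdx6 were higher in every FLASH library than in every control library, as were 6.93% of all genes. Both comparisons use the same control libraries.

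FLASH against CONV asked where the dose rates differed at the same dose. Sod2 was lower in FLASH and the other 9 genes did not pass, where 19.8% of all genes passed, 9.88% higher and 9.91% lower. The median log2 fold change was 0.03 for the 10 genes and -0.02 over all genes. In none of the 10 genes did the FLASH and CONV libraries fail to overlap, against 8.53% of all genes. None of these 10 calls (4, 5 and 1 in the 3 comparisons) changed sign under any alternative tried, but several lost the threshold, as given with each gene.

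With library totals in place of TMM factors the median log2 fold change over all genes moved to -0.25 in CONV against control, -0.44 in FLASH against control and -0.18 in FLASH against CONV. The share of genes called higher then went from 46.0% to 24.2%, from 44.3% to 17.4% and from 49.9% to 24.4% in the same order.

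**Figure D2:**
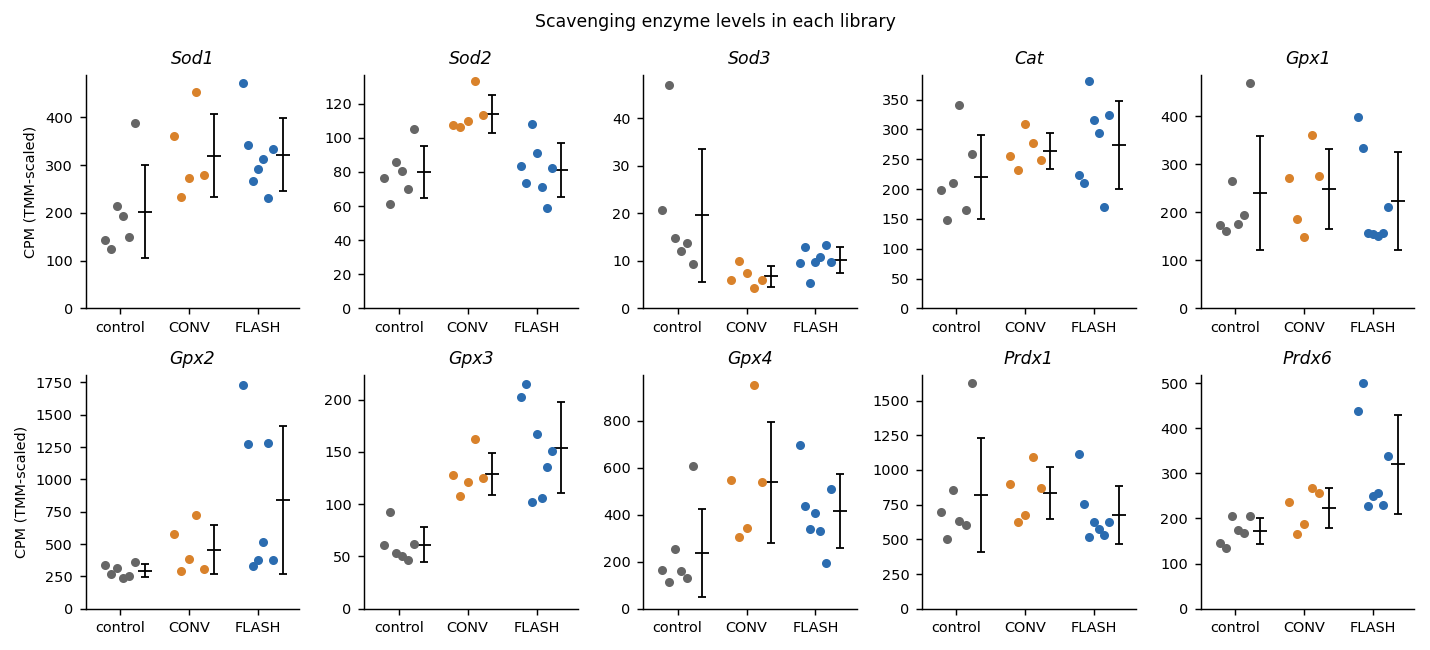
CPM (y axis, from 0) of each enzyme in every library, by group, with the group mean and SD as a bar at the right of its points. Gpx3 and Prdx6 in FLASH, and Sod2 and Gpx3 in CONV, lie wholly above the controls, and control 6 is the highest control point for Sod1, Gpx1, Gpx4 and Prdx1.

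The 3 superoxide dismutases went different ways. Sod1 encodes the copper-zinc enzyme of the cytosol, Sod2 the manganese enzyme of the mitochondrial matrix and Sod3 a secreted copper-zinc enzyme that binds to the extracellular matrix. Sod1 lies on chromosome 16 (90220754 to 90226329, mm10), Sod2 on chromosome 17 (13006846 to 13040063) and Sod3 on chromosome 5 (52363791 to 52371418).

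Sod1 ranged from 125 to 389 CPM in controls, with a median of 172. The CONV libraries 2, 3, 5, 6 and 7 held 361, 233, 274, 453 and 280 CPM, and FLASH ranged from 232 to 472 CPM with a median of 313. Control 6 alone, at 389 CPM, overlapped the irradiated libraries, since the next control stood at 215 CPM. Sod1 rose in FLASH by 0.67 ± 0.25 (log2, SE; edgeR adjusted p = 0.0391), from 202 ± 97.5 CPM (SD, n = 6) to 322 ± 76.5 CPM (n = 7). In CONV the log2 fold change was 0.66 ± 0.26 with an edgeR adjusted p of 0.0759. The FLASH call was lost in 13 of 24 alternatives (adjusted p up to 0.205), among them leaving out any of controls 1 to 5 or FLASH 1, 2, 6 or 9. Without control 6 both changes passed in edgeR, with 0.95 in CONV (adjusted p = 0.00289) and 0.96 in FLASH (adjusted p = 0.00111). With the length and GC offset both also passed, with 0.34 ± 0.12 in CONV (edgeR adjusted p = 0.0386) and 0.68 ± 0.11 in FLASH (adjusted p = 6.77e-05). The dose rates differed by 0.01 ± 0.26 (edgeR adjusted p = 0.989), and by 0.34 ± 0.11 with the offset (adjusted p = 0.0342). Near its end the gene overlaps Scaf4 on the opposite strand, which held 11949 counts in all libraries against 128607 for Sod1. The library kit keeps the strand, but whether the counting used it is not given in the sources used here.

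Sod2 was higher in CONV than in both other groups. It ranged from 61.5 to 105 CPM in controls (median 78.4) and from 58.7 to 108 CPM in FLASH (median 82.4). The CONV libraries 2, 3, 5, 6 and 7 held 108, 106, 110, 133 and 113 CPM. All 5 were above the highest control, and the lowest 2 of them were below the highest FLASH library, FLASH 4. Sod2 rose in CONV against control by 0.51 ± 0.16 (log2, SE; edgeR adjusted p = 0.0270) and was lower in FLASH than in CONV by 0.49 ± 0.15 (log2 fold change -0.49, edgeR adjusted p = 0.0290). FLASH and control differed by 0.02 ± 0.14 (edgeR adjusted p = 0.922). The rise in CONV lost the threshold in 6 of 22 alternatives (adjusted p up to 0.118), among them leaving out control 1, 2 or 5 or CONV 6. The difference between dose rates lost it in 8 of 23 (adjusted p up to 0.104), among them leaving out CONV 6 or 7 or FLASH 2, 6 or 7. It was also lost without control 1 or control 5, which shared the fit and are not among the 23. With the length and GC offset the rise and the difference both passed in edgeR, with 0.63 ± 0.20 (adjusted p = 0.0262) and -0.68 ± 0.19 (adjusted p = 0.0152). On library totals Sod2 in FLASH against control was -0.34 with an edgeR adjusted p of 0.0377, where the median over all genes was -0.44.

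Sod3, the least abundant of the 10, fell in both irradiated groups. Controls 1 to 6 held 20.8, 47.1, 14.8, 12.0, 13.7 and 9.38 CPM, with control 2 far above the rest. The CONV libraries 2, 3, 5, 6 and 7 held 6.02, 10.1, 7.41, 4.33 and 5.96 CPM, and FLASH ranged from 5.29 to 13.4 CPM with a median of 9.88. The log2 fold change was -1.54 ± 0.36 in CONV (edgeR adjusted p = 0.00665) and -0.94 ± 0.32 in FLASH (adjusted p = 0.0268), and FLASH and CONV differed by 0.60 ± 0.34 (adjusted p = 0.232). Control 2 moved these values most. Without it the log2 fold change was -1.07 in CONV (edgeR adjusted p = 0.0117) and -0.43 in FLASH (adjusted p = 0.179). The call in CONV held in all 22 alternatives, while the call in FLASH was lost in 6 of 24, among them leaving out control 1 (adjusted p = 0.0547) or FLASH 4 (adjusted p = 0.0592).

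Some markers of the vessel wall and stroma were lower beside Sod3, while endothelial markers in FLASH were not. Smooth muscle markers summed to 1147 to 3411 CPM in controls, 165 to 1125 CPM in CONV and 381 to 1182 CPM in FLASH, and 3 of 8 passed as lower in CONV and 8 of 8 in FLASH. Fibroblast markers summed to 378 to 1201, 255 to 502 and 397 to 521 CPM, and endothelial markers to 79.5 to 673, 95.0 to 156 and 140 to 330 CPM, with control 2 the highest of all libraries in both lists. Of 8 fibroblast markers 3 were lower in CONV, and 5 lower and 1 higher in FLASH. Of 8 endothelial markers 2 were lower in CONV, and in FLASH the 8 did not pass. Over all genes tested 12% were called lower in CONV and 21% in FLASH. None of these markers was at 0 in a whole group. Their part in the fall of Sod3 was not tested.

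Catalase did not pass in any comparison. Cat, on chromosome 2 (103453849 to 103485160), ranged from 148 to 341 CPM in controls, from 231 to 309 CPM in CONV and from 170 to 380 CPM in FLASH, and each irradiated group overlapped the controls. The log2 fold change was 0.26 ± 0.22 in CONV, 0.32 ± 0.20 in FLASH and 0.05 ± 0.21 between them, with edgeR adjusted p of 0.378, 0.235 and 0.895. The call did not change in any alternative, and the sign turned in FLASH against control on library totals (-0.03). In FLASH against CONV the sign turned on library totals (-0.10), with a replicate block (-0.17) and without FLASH 4 (-0.0074).

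The 4 glutathione peroxidases are selenoproteins. Each carries selenocysteine in its active site, inserted at a TGA codon that would otherwise end translation, and each therefore depends on selenium supply. The transcript sequences around that codon show how the family members relate, and they are printed here 5′ to 3′ from the GENCODE M21 transcripts (mm10), with the selenocysteine codon in capitals and 7 codons on each side.
Gpx1: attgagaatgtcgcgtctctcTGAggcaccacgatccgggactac
Gpx2: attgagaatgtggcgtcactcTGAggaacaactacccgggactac
Gpx3: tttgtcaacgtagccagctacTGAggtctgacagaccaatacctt
Gpx4: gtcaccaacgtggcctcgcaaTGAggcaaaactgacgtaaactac
Gpx1 and Gpx2, both cytosolic enzymes, were identical at 39 of these 45 bases. Any other pair was identical at 21 to 27. The codon is number 47 of the Gpx1 coding sequence (exon 1 of 2, chr9:108339451-108339453, plus strand), number 40 of Gpx2 (exon 1 of 2, chr12:76795256-76795258, minus strand), number 73 of Gpx3 (exon 2 of 5, chr11:54907256-54907258, plus strand) and number 73 of Gpx4 (exon 3 of 7, chr10:80054737-80054739, plus strand).

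Gpx1, the ubiquitous cytosolic enzyme, did not pass in any comparison. It ranged from 161 to 469 CPM in controls (median 185), from 149 to 361 CPM in CONV (median 271) and from 151 to 399 CPM in FLASH (median 157). The highest library of each group was the one with the most negative length slope, control 6, CONV 6 and FLASH 1. The log2 fold change was 0.05 ± 0.33 in CONV and -0.10 ± 0.30 in FLASH (edgeR adjusted p of 0.921 and 0.817), and with the length and GC offset -0.22 ± 0.21 and -0.21 ± 0.19 (adjusted p of 0.452 and 0.388). FLASH and CONV differed by -0.15 ± 0.32 (edgeR adjusted p = 0.779).

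Gpx2, the cytosolic enzyme of the gut epithelium, rose in FLASH and was very uneven there. Controls ranged from 235 to 362 CPM (median 292), and the CONV libraries 2, 3, 5, 6 and 7 held 575, 295, 387, 727 and 304 CPM. The FLASH libraries 1, 2, 4, 5, 6, 7 and 9 held 1734, 1273, 335, 381, 519, 1285 and 373 CPM. FLASH 1, 2 and 7 stood above every other library of the study, while FLASH 4 lay within the range of the controls. In FLASH the log2 fold change was 1.51 ± 0.38 (edgeR adjusted p = 0.00436), from 295 ± 50.8 CPM (SD, n = 6) to 843 ± 573 CPM (n = 7). This call held in all 24 alternatives, with log2 fold changes from 1.13 to 1.70. In CONV the value was 0.63 ± 0.40 (edgeR adjusted p = 0.243). FLASH and CONV differed by 0.88 ± 0.39 (edgeR adjusted p = 0.121), and by 1.10 ± 0.35 with the length and GC offset (adjusted p = 0.0289), the only 1 of 23 alternatives in which this difference passed. Gpx2 (chromosome 12, 76792333 to 76795554) lies on the opposite strand within the span of Fntb, which held 6285 counts in all libraries against 254154 for Gpx2.

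Gpx3, the secreted enzyme found in plasma and at basement membranes, rose in both irradiated groups and gave the smallest adjusted p of the 10. Controls 1 to 6 held 60.5, 93.0, 53.0, 50.4, 47.0 and 62.3 CPM. The CONV libraries 2, 3, 5, 6 and 7 held 128, 108, 122, 163 and 125 CPM, and FLASH ranged from 102 to 215 CPM with a median of 151. Every irradiated library was above every control, including control 2, which stood apart at 93.0 CPM. The log2 fold change was 1.08 ± 0.21 in CONV (edgeR adjusted p = 0.00182) and 1.34 ± 0.20 in FLASH (adjusted p = 5.43e-05). Both calls held in every alternative (22 and 24), from 0.80 to 1.23 in CONV and from 0.94 to 1.53 in FLASH. The dose rates differed by 0.26 ± 0.20 (edgeR adjusted p = 0.400).

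Gpx4, which reduces lipid peroxides within membranes and holds back ferroptosis, rose in CONV. Controls ranged from 112 to 608 CPM with a median of 165, and control 6, the highest, was far from the next at 253 CPM. The CONV libraries 2, 3, 5, 6 and 7 held 550, 303, 344, 950 and 541 CPM, and FLASH ranged from 195 to 697 CPM with a median of 406. The log2 fold change was 1.17 ± 0.41 in CONV (edgeR adjusted p = 0.0479) and 0.80 ± 0.38 in FLASH (adjusted p = 0.106), and FLASH and CONV differed by -0.37 ± 0.39 (adjusted p = 0.553). The call in CONV was lost in 12 of 22 alternatives (adjusted p up to 0.176), and leaving out any 1 of controls 1 to 5 or of CONV 2, 6 and 7 ended it. Without control 6 it was 1.70 in CONV (edgeR adjusted p = 0.00125) and 1.34 in FLASH (adjusted p = 0.00259). With the length and GC offset it was 0.94 ± 0.28 in CONV (edgeR adjusted p = 0.0192) and 0.78 ± 0.26 in FLASH (adjusted p = 0.0195). The processed pseudogene Gpx4-ps2 held 4074 counts, Gpx2-ps1 held 93 and Prdx6-ps2 held 0, and reads of a gene and its copy may have been split between them.

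The 2 peroxiredoxins parted in FLASH. Prdx1 encodes an abundant cytosolic thioredoxin-dependent peroxidase, and Prdx6 an enzyme that also repairs peroxidised phospholipids and has phospholipase activity. Prdx1 (chromosome 4, 116685544 to 116700822) ranged from 504 to 1625 CPM in controls (median 664), from 624.8 to 1094 CPM in CONV (median 867) and from 515 to 1118 CPM in FLASH (median 626). Control 6 and FLASH 1 were the highest of their groups by a wide margin. The log2 fold change was 0.02 ± 0.28 in CONV and -0.27 ± 0.25 in FLASH (edgeR adjusted p of 0.958 and 0.419), and the difference between dose rates was -0.30 ± 0.27 (adjusted p = 0.462). With the length and GC offset Prdx1 was lower in FLASH than in controls by 0.42 (log2 fold change -0.42 ± 0.12, edgeR adjusted p = 0.00917). After that correction control 6 and FLASH 1 were still the highest of their groups, at log2 CPM of 10.23 and 9.71. On library totals it was lower by 0.63 (-0.63, edgeR adjusted p = 0.0215), where the median over all genes was -0.44. Without control 6 the value was 0.04 (edgeR adjusted p = 0.885).

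Prdx6 (chromosome 1, 161240112 to 161251219) ranged from 135 to 206 CPM in controls with a median of 171. The CONV libraries 2, 3, 5, 6 and 7 held 237, 166, 187, 268 and 257 CPM, and the FLASH libraries 1, 2, 4, 5, 6, 7 and 9 held 438, 500, 227, 249, 257, 230 and 338 CPM. Every FLASH library was above every control, and FLASH 1, 2 and 9 were above every CONV library. Prdx6 rose in FLASH by 0.89 ± 0.20 (log2, SE; edgeR adjusted p = 0.00217), from 172 ± 29.6 CPM (SD, n = 6) to 320 ± 110 CPM (n = 7), and this call held in all 24 alternatives (0.52 to 0.999). In CONV the log2 fold change was 0.37 ± 0.22 (edgeR adjusted p = 0.209). FLASH and CONV differed by 0.52 ± 0.21 (edgeR adjusted p = 0.0911). That difference passed with the length and GC offset (0.62 ± 0.17, edgeR adjusted p = 0.0119) and without FLASH 4 (0.63, adjusted p = 0.0493), and in none of the other 21 alternatives.

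**Figure D3:**
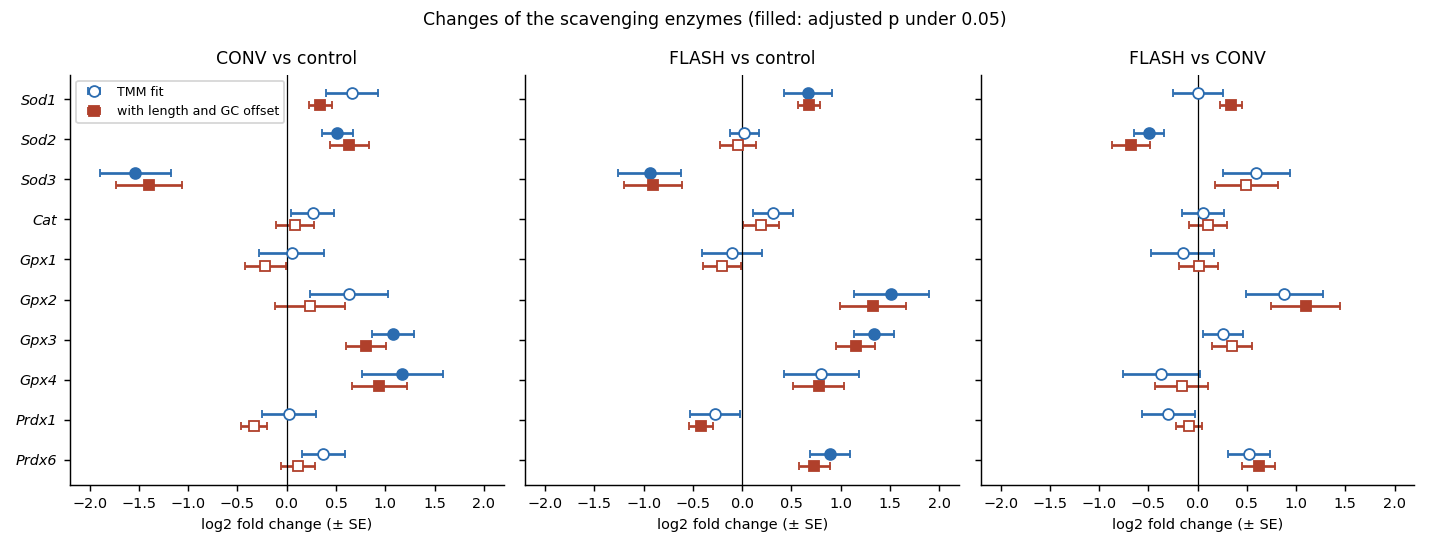
Log2 fold change with its SE (x axis) of the 10 enzymes in the 3 comparisons, from the fit on TMM factors (circles) and from the fit with the length and GC offset (squares), filled where the edgeR adjusted p was under 0.05. With the offset 5, 7 and 4 of the 10 genes passed instead of 4, 5 and 1, and Sod1, Gpx2 and Prdx6 were then higher in FLASH than in CONV, while Gpx1 and Prdx1 in CONV, Sod2 in FLASH against control and Gpx1 in FLASH against CONV changed sign without passing.

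With the offset, the number of all genes called went from 3615 to 4168 in CONV against control, from 6135 to 7547 in FLASH against control and from 3217 to 4150 in FLASH against CONV. Without control 6, CONV 6 and FLASH 1 these counts were 5288, 7198 and 3840, and 5, 6 and 0 of the 10 genes passed in edgeR (3 in the last comparison at an unadjusted p under 0.05). Sod2 in FLASH against CONV was then -0.43 ± 0.15 with an edgeR adjusted p of 0.0507.

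A ratio of counts of 2 genes within a library does not depend on how the library was scaled. Each sister gene was therefore set against the most widely expressed member of its family, for 6 ratios in 3 comparisons, tested by two-sided exact permutation of the libraries and adjusted over the 18 tests. The smallest p that the splits allow is 0.00216 for CONV against control (462 splits), 0.000583 for FLASH against control (1716 splits) and 0.00126 for FLASH against CONV (792 splits). A ratio can still follow the length slope where its 2 genes differ in length, as Sod2 (5861 bases) and Sod1 (641 bases) do. The ratios were not computed with the length and GC offset.

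Prdx6 rose relative to Prdx1 in FLASH. The log2 ratio of Prdx6 to Prdx1 averaged -2.15 ± 0.43 (SD, n = 6) among controls, -1.89 ± 0.10 (n = 5) among CONV and -1.10 ± 0.27 (n = 7) among FLASH libraries. Every FLASH library, from -1.35 to -0.59, was above every control and every CONV library, the highest of which were at -1.84 and -1.76. The difference from control was 1.05 and from CONV 0.79, both with the smallest exact p the splits allow (exact permutation, adjusted p = 0.00758 each). Both held in all alternatives, without any 1 library and without the 3 libraries of steepest slope. CONV and control differed by 0.26 (exact permutation, adjusted p = 0.270).

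Gpx4 rose relative to Gpx1 after both dose rates. The mean log2 ratio went from -0.16 ± 0.35 in controls to 1.06 ± 0.26 in CONV and 0.92 ± 0.42 in FLASH. All 5 CONV libraries, from 0.71 to 1.40, were above the highest control at 0.37, and of the FLASH libraries only FLASH 7, at 0.33, was not. The differences from control were 1.22 and 1.08 (exact permutation, adjusted p = 0.00874 each) and held in all 13 and 15 alternatives. FLASH and CONV differed by -0.14 (exact permutation, adjusted p = 0.509), a difference whose sign turned with group medians (0.09).

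Gpx3 and Gpx2 also rose relative to Gpx1 in FLASH. For Gpx3 the mean log2 ratio was -1.90 ± 0.72 in controls, -0.89 ± 0.36 in CONV and -0.47 ± 0.34 in FLASH, with differences from control of 1.01 (exact permutation, adjusted p = 0.0312) and 1.42 (adjusted p = 0.00758). The CONV call was lost in 12 of 13 alternatives (exact permutation, adjusted p from 0.0571 to 0.178) and held without control 2 (adjusted p = 0.0204). For Gpx2 the mean was 0.40 ± 0.46, 0.86 ± 0.47 and 1.73 ± 0.75, with a difference from control of 1.33 in FLASH (exact permutation, adjusted p = 0.00874) and 0.46 in CONV (adjusted p = 0.175). FLASH and CONV differed in this ratio by 0.87 (exact permutation, adjusted p = 0.0625). FLASH 7, whose length slope was the highest of its group, had the highest ratio of Gpx2 to Gpx1, at 3.04.

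Among the dismutases, both sisters fell relative to Sod1 in FLASH. The mean log2 ratio of Sod2 to Sod1 was -1.25 ± 0.35 in controls, -1.45 ± 0.28 in CONV and -1.98 ± 0.39 in FLASH. FLASH differed from control by -0.73 (exact permutation, adjusted p = 0.0180), a call that held in all 15 alternatives, and from CONV by -0.52 (adjusted p = 0.0599). CONV and control differed by -0.20 (exact permutation, adjusted p = 0.332). With the length and GC offset, which the ratios did not use, Sod2 and Sod1 moved by 0.63 and 0.34 in CONV against control. In FLASH against CONV they then moved by -0.68 and 0.34. The ratio of Sod3 to Sod1 was lower in both irradiated groups than in controls (log2 differences of -2.10 in CONV and -1.51 in FLASH, exact permutation, adjusted p = 0.0260 each). Without control 2 these were -1.69 and -1.10, and the FLASH call was lost (exact permutation, adjusted p = 0.0523). The CONV call was lost without control 1, CONV 2, CONV 6 or CONV 7 and the FLASH call also without control 1 or FLASH 1, with values from -2.11 to -1.82 and from -1.41 to -1.37. Both were lost with group medians, at -1.90 and -1.26.

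**Figure D4:**
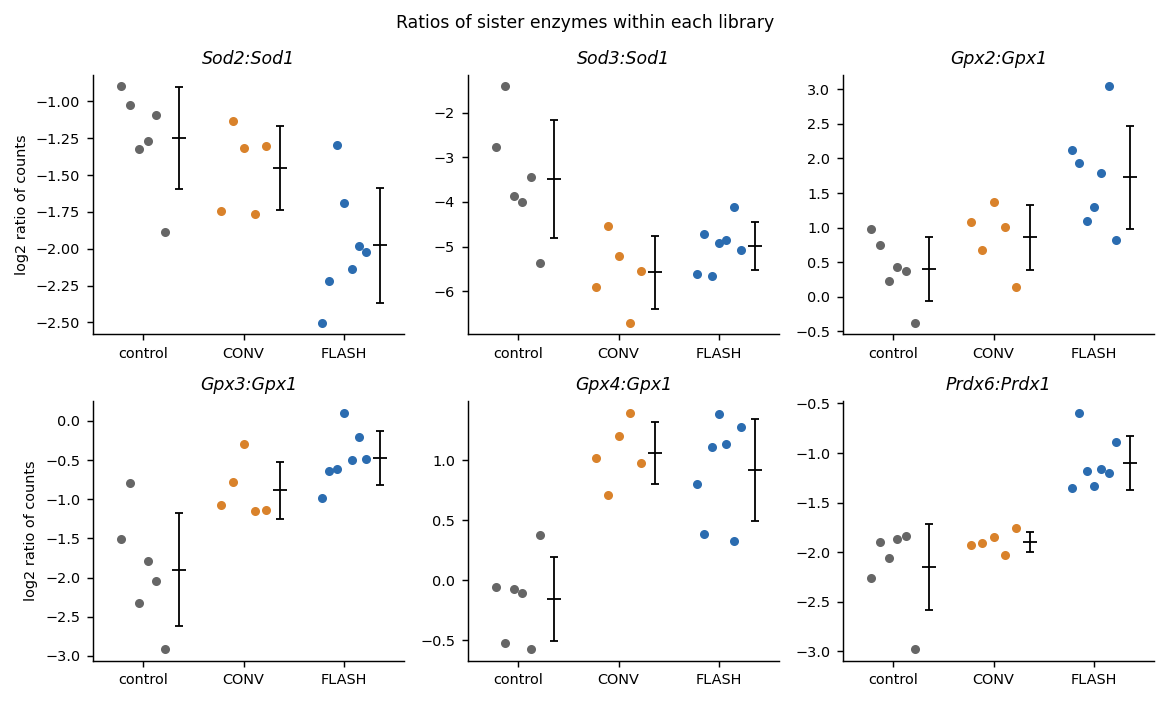
Log2 ratio of counts (y axis) of each sister enzyme to Sod1, Gpx1 or Prdx1 in every library, by group, with the group mean and SD at the right. All 7 FLASH libraries lie above all others for Prdx6 to Prdx1, and all 5 CONV libraries lie above the controls for Gpx4 to Gpx1.

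Levels of different genes were compared per kilobase of transcript. On the principal transcript of each gene, controls held 357 ± 179 CPM per kilobase of Prdx1 (SD, n = 6), 316 ± 152 of Sod1, 277 ± 47.6 of Gpx2, 249 ± 195 of Gpx4 and 224 ± 111 of Gpx1, which did not differ beyond their spread. Cat (84.2 ± 27.0) and Prdx6 (72.2 ± 12.4) followed, then Gpx3 (38.3 ± 10.5), Sod2 (13.6 ± 2.57) and Sod3 (5.25 ± 3.74). Gpx2 had the highest mean in FLASH at 790 ± 537 CPM per kilobase (n = 7), within its spread of Sod1 at 502 ± 119. In CONV the highest mean was that of Gpx4 at 561 ± 267 (n = 5), within its spread of Sod1 at 499 ± 137. With the shortest coding transcript of each gene, Prdx1 led in controls and CONV and Gpx2 in FLASH, there with 790 against 773 of Prdx1. Sod2, Sod3 and Gpx3 kept ranks 9, 10 and 8 in all groups on both lengths. Sod2 has the longest transcript of the 10 (5861 bases) and Sod1 the shortest (641 bases).

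The genes whose log2 CPM followed each enzyme most closely over the 18 libraries were taken from all genes tested, by Pearson's r and with no test, for enzymes that passed in at least 1 comparison. These libraries share depth, group and length slope. For Gpx2 they were Snhg5 (0.95), Cd47 (0.94) and Snhg3 (0.92). For Gpx3 they were Ctsl (0.95), Pf4 (0.94) and Tspan4 (0.94), and for Prdx6 Rab2a (0.96), Vdac2 (0.95) and Psmc1 (0.95). Sod1 was closest to Cript, Vps25 and Tbca (each 0.98) and Gpx4 to Smdt1, Nit2 and Dbi (each 0.98). Sod2 was closest to Tpi1 (0.97), Mppe1 (0.96) and Gm12999 (0.96), and Sod3 to Csf2rb (0.95) and Rftn1 (0.94).

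The enzymes that feed the scavengers were read from a list of 15 genes of thioredoxin and glutathione recycling, all measured. In CONV 4 rose, 1 fell and 10 did not pass, with a median log2 fold change of 0.38, and in FLASH the counts were 4, 1 and 10 with a median of 0.27. Over all genes 22.2% passed in CONV, 37.7% in FLASH and 19.8% in FLASH against CONV. In FLASH 5 rose and 3 fell with the length and GC offset. Gclc, the catalytic subunit of the rate-limiting enzyme of glutathione synthesis, had mean levels of 33.3, 93.6 and 199 CPM in control, CONV and FLASH libraries. Its log2 fold change was 1.49 ± 0.32 in CONV (edgeR adjusted p = 0.00366), 2.58 ± 0.31 in FLASH (adjusted p = 8.23e-06) and 1.09 ± 0.32 between them (adjusted p = 0.0217). Txnrd1, the cytosolic thioredoxin reductase, rose by 0.93 ± 0.14 and 0.86 ± 0.13, and Gclm, the modifier subunit beside Gclc, by 0.95 ± 0.23 and 0.94 ± 0.22. Txnrd3 fell in CONV (log2 fold change -0.98 ± 0.26) and the mitochondrial reductase Txnrd2 fell in FLASH (-0.97 ± 0.21). In FLASH against CONV, Gclc and Txnrd3 were higher, while Ccs, the copper chaperone of Sod1 (-0.80 ± 0.20), and mitochondrial Txn2 (-0.54 ± 0.19) were lower.

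Of 9 other peroxiredoxins and glutathione peroxidases, 6 were measured, and Prdx6b, Gpx5 and Gpx6 had too few counts to be tested. Prdx5 rose by 1.03 ± 0.32 in CONV and by 0.99 ± 0.30 in FLASH (edgeR adjusted p of 0.0311 and 0.0155). Gpx8 fell in FLASH (log2 fold change -0.88 ± 0.24), and mitochondrial Prdx3 was lower in FLASH than in CONV (-0.59 ± 0.18, edgeR adjusted p = 0.0294), as Sod2 was. The median of the 6 was 0.28, -0.18 and -0.46 in the 3 comparisons.

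Of 8 measured genes of selenoprotein synthesis, 2 rose in CONV and 1 rose and 1 fell in FLASH, where 22.2% and 37.7% of all genes passed. The counts in FLASH were 1 and 3 with the length and GC offset. Secisbp2, which binds the selenocysteine element of these messages, rose by 0.45 ± 0.13 in CONV and 1.04 ± 0.12 in FLASH and was higher in FLASH than in CONV by 0.59 ± 0.13 (edgeR adjusted p of 0.0200, 5.25e-06 and 0.00432). Scly, which frees selenium from selenocysteine, fell in FLASH (-1.09 ± 0.19) and was lower than in CONV (-0.83 ± 0.19, edgeR adjusted p = 0.00647). Of 12 other selenoproteins 2 rose in CONV, and 2 rose and 1 fell in FLASH. Selenop, the secreted selenium carrier, had mean levels of 5745, 12111 and 10795 CPM in control, CONV and FLASH libraries (edgeR adjusted p of 0.0394 and 0.0393).

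Most genes that passed among those whose products make superoxide or peroxide fell. Of 18 measured producers (of 19 listed), 5 fell and 13 did not pass in CONV, and 9 fell, 2 rose and 7 did not pass in FLASH, with medians of -0.65 and -1.01. Over all genes 12% were called lower in CONV and 21% in FLASH. Under the length and GC offset 7 fell and 1 rose in CONV, and 9 fell and 2 rose in FLASH. Between the dose rates 2 were lower in FLASH and 16 did not pass, where 9.91% of all genes were called lower. Nox1, the NADPH oxidase of the epithelium, held 426 counts over the 6 control libraries, 32 over the 5 CONV libraries and 56 over the 7 FLASH libraries. Its organizer Noxo1 fell in FLASH by 0.98 on the log2 scale (-0.98 ± 0.20), and its activator Noxa1 fell in both groups (-1.20 ± 0.27 in CONV and -1.51 ± 0.25 in FLASH). Cybb, the phagocyte oxidase, fell by 1.27 and 1.08 on the log2 scale (edgeR adjusted p of 0.00281 and 0.00153). Hao2, a peroxisomal oxidase, held 100 counts in controls (9 to 22 per library), 0 in CONV and 3 in FLASH, all in 1 library. It had enough counts to be tested only through the controls, so its call as lower carries no weight of its own. The crypt base stem cell markers fell beside these genes, 5 of 8 in CONV and 8 of 8 in FLASH, with summed levels of 821 to 1384 CPM in controls, 115 to 273 in CONV and 134 to 237 in FLASH. Macrophage markers summed to 219 to 433, 214 to 244 and 196 to 318 CPM. Of 8 macrophage markers 4 were lower in CONV, and 3 lower and 1 higher in FLASH. The part of either cell type in these falls was not tested.

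Peroxisomal genes other than catalase were mostly higher among those that passed. Of 23 measured genes of the peroxisome matrix and its biogenesis, 8 rose and 15 did not pass in CONV, and 11 rose and 12 did not pass in FLASH, with medians of 0.49 and 0.53, where 10.2% and 16.7% of all genes were called higher. Under the length and GC offset 9 rose in CONV, and in FLASH 12 rose and Pex6 fell (log2 fold change -0.69, edgeR adjusted p = 0.0249). Slc27a2, a very long chain acyl-CoA synthetase, rose by 1.62 ± 0.29 in CONV and 2.12 ± 0.28 in FLASH. Pex11a, which acts in peroxisome division, rose by 1.48 ± 0.28 and 1.96 ± 0.27. The thiolase Acaa1b rose in CONV by 2.44 ± 0.51 and the import factor Pex13 by 0.96 ± 0.22. Pex16 and Pex19, which place peroxisomal membrane proteins, rose in FLASH by 1.03 ± 0.21 and 0.82 ± 0.17. In FLASH against CONV only Pex5, the import receptor of catalase and other matrix enzymes, passed (0.46 ± 0.13, edgeR adjusted p = 0.0190), where 19.8% of all genes passed. With the length and GC offset 5 were higher, Pex3, Pex5, Pex11a, Pex16 and Pex19, and Pex6 and Pex10 were lower. Over all 16257 genes 4150 then passed. Enterocyte markers rose beside them, 5 of 10 in CONV and 7 of 10 in FLASH, and their part was not tested. Every change named for these lists, from Gclc to Pex5, also passed with the length and GC offset.

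**Figure D5:**
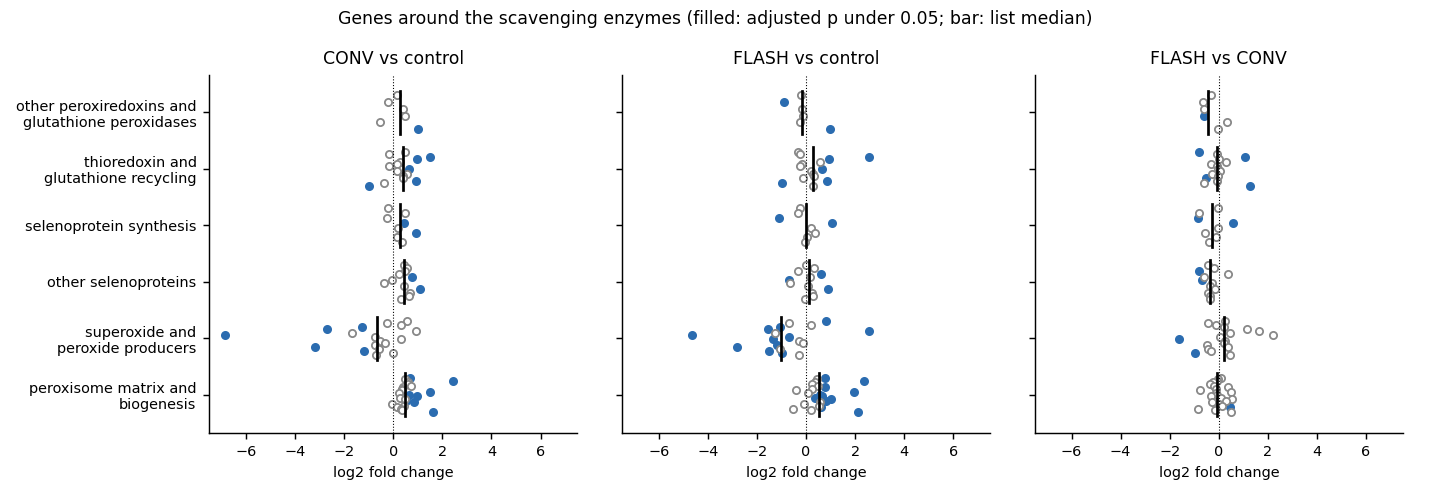
Log2 fold change (x axis) of each measured gene in 6 lists of neighbouring genes, in the 3 comparisons, filled where the edgeR adjusted p was under 0.05, with the list median as a bar. Peroxisomal genes that passed lie to the right and most producers that passed to the left, and the leftmost point in both comparisons with control is Hao2, whose place depends on the prior count because CONV held 0 counts.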

How the data were processed

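RNA of whole jejunum was sequenced in 18 libraries from 250 ng of total RNA each with a stranded mRNA kit, as single-end reads of 100 bp, per the labels' protocols. The submitters' processing notes name STAR, Salmon, edgeR 3.40.2, limma 3.54.2 and mm10, without roles. The authors deposited 2 tables. In the first, the authors give each of 54532 Ensembl genes its estimated count in each library, without scaling, per the file headers and values. These were rounded here. The second holds normalized log2 values deposited by the authors for 19193 genes, and served only as an alternative. Symbols, transcript lengths, coordinates and transcript sequences came from GENCODE M21. The 123 IDs without a symbol held 0.0280% of counts.

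Counts were tested with edgeR 4.0.16 (R 4.3.3; filterByExpr, TMM factors, robust quasi-likelihood fit of all 18 libraries, Benjamini-Hochberg adjustment over 16257 genes, threshold 0.05). SE is the absolute log2 fold change divided by the square root of F, and log2 CPM used a prior count of 2. A positive value means higher in the first group named. The pipeline was tested on simulated data. No 2 libraries agreed within sampling noise (lowest chi-square per degree of freedom 23.3).

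The length slope came from protein-coding genes above a mean log2 CPM of 3, and the offset used splines of length and GC content with 4 degrees of freedom per library. Correlations with it used 100000 permutations within groups. Alternatives were DESeq2-style size factors, library totals, 2 other filters, DESeq2 1.42.0, limma-voom and limma-trend (limma 3.58.1), fits of only the 2 groups in question, a replicate block, the offset and leaving out libraries. A single library left out was counted as an alternative only in comparisons that held its group.

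The 10 genes, the lists and the alternatives were chosen with earlier results of these data known. From each list up to 4 genes that passed were named by smallest p, and for each enzyme that passed the 3 genes of highest Pearson's r, of which 1 is not reported here.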

Additional observations from a re-analysis of the deposited data

Results flagged for a closer look

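In 30 sets of values (10 genes in 3 groups), 8 held 1 library farther from the rest than Dixon's critical value allows, where chance gives about 1 set in 20. Control 6 stood above the other controls for Prdx1 (1625 CPM), Gpx4 (608 CPM), Gpx1 (469 CPM) and Sod1 (389 CPM), the 4 enzymes whose levels followed the length slope most closely, and it had the most negative slope of its group. FLASH 1, with the most negative slope in FLASH, stood apart for Prdx1 (1118 CPM), and CONV 6, with the most negative slope in CONV, for Sod2 (133 CPM). Control 2 was the highest control for Sod3 (47.1 CPM) and Gpx3 (93.0 CPM), and also held the highest summed endothelial and fibroblast markers of all libraries.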

How the results depend on the processing

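Calls of Gpx3 in both irradiated groups, of Sod3 in CONV and of Gpx2 and Prdx6 in FLASH against control held in every alternative counted, as did the ratios of Prdx6 to Prdx1 in FLASH against both groups and of Gpx4 to Gpx1 against control. Other calls of the 10 enzymes lost the threshold in some alternatives, as given with each gene; the cause was not tested.

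With library totals 2 of the 10 genes passed in CONV against control. With genes of at least 1 count 2 passed there and 0 in FLASH against CONV (3 at an unadjusted p under 0.05). With the length and GC offset 4 passed in FLASH against CONV, and without control 6, CONV 6 and FLASH 1 together 0 (3 unadjusted).

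Replicate numbers of the labels did not pair the libraries: correlations of deviations between same-numbered libraries ran from -0.27 to 0.61, and 1 of 4, 1 of 5 and 0 of 4 libraries correlated best with their own number. With a replicate block 2525, 4279 and 1569 genes passed, and 4, 3 and 0 of the 10 enzymes (2 unadjusted in the last). Sod1 and Cat in FLASH against CONV were then -0.012 and -0.17.

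Leaving out 1 library gave 1869 (without CONV 6) to 6493 (without control 6) genes in CONV against control, with 2 to 5 of the enzymes, 5074 to 7164 with 3 to 6 in FLASH against control, and 2171 to 3680 with 0 to 2 in FLASH against CONV. In CONV against control it gave -0.12 to 0.36 for Gpx1 and -0.10 to 0.34 for Prdx1. In FLASH against control it gave -0.028 to 0.11 for Sod2, -0.30 to 0.20 for Gpx1 and -0.44 to 0.041 for Prdx1. In FLASH against CONV it gave -0.11 to 0.16 for Sod1, -0.0074 to 0.14 for Cat and -0.35 to 0.021 for Gpx1. Libraries outside a comparison shared its fit but were not counted here. Without FLASH 2, 4, 5, 6 or 9, 3 of the enzymes passed in CONV against control, and without control 1 or 5, 0 passed in FLASH against CONV.

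Signs that turned were otherwise these, none of them in a comparison where the reported fit called that gene. On library totals Gpx1 (-0.17) and Prdx1 (-0.18) turned in CONV against control. So did Sod2 (-0.34, edgeR adjusted p = 0.0377) and Cat (-0.035) in FLASH against control. Sod1 (-0.14) and Cat (-0.10) turned in FLASH against CONV. With the length and GC offset Gpx1 (-0.22) and Prdx1 (-0.33) in CONV, Sod2 (-0.043) in FLASH against control and Gpx1 (0.011) in FLASH against CONV turned. Without the 3 libraries of steepest slope Gpx1 in FLASH against control was 0.042. With group medians the ratio of Gpx4 to Gpx1 in FLASH against CONV was 0.095.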
